A study of Mus musculus with 6 samples.

Results

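The genes described here encode 7 cytokines of activated CD4 T cells: Il2, Ifng, Tnf, Lta, Ltb, Csf2 and Il3. They were chosen by name, and all 7 were found among the 55335 genes of the count table. They were measured in mouse CD4 T cells taken by sorting out of colon lamina propria, the connective tissue under the gut epithelium. The spleen of TcfGFP mice, which carry a GFP reporter for Tcf7, gave naive CD4 T cells that had been transferred into Rag1 knockout (Rag1 KO) hosts, and colitis followed. One group held GFP+ cells, which the labels call stem-like and TCF7+, and the other held GFP- cells, called effector and TCF7-. There were 3 libraries in each group, and donors' genotype, host genotype and colitis were the same in both. Rag1 KO hosts make no T or B cells of their own but still have myeloid, natural killer and innate lymphoid cells. The strain, the age, the time after transfer and any pooling of animals are unstated in the sources used, and nothing says that the replicates came from separate mice. The p-values therefore measure only the spread between these samples, which may be technical.

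Helper T cells act on other cells largely through secreted cytokines. IL-2 is the growth factor of T cells and sustains regulatory T cells. IFN-gamma is the defining cytokine of Th1 cells and activates macrophages and epithelium. TNF, lymphotoxin alpha and lymphotoxin beta form one family of ligands that signal to NF-kB, while GM-CSF (Csf2) and IL-3 act on myeloid cells and their precursors. In T cell transfer colitis, IFN-gamma, TNF and GM-CSF from the transferred cells are known to take part in the inflammation. TCF1, the product of Tcf7, keeps T cells in naive, memory or stem-like states as a transcription factor.

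Library totals ranged from 4309500 to 7462076 counts, below the minimum of uniquely mapped reads that the labels state for each sample, and which reads were left uncounted is unstated. The reporter gene Tcf7 had 187 ± 48.4 CPM (counts scaled to a common library size by TMM factors) in GFP+ and 111 ± 35.7 CPM in GFP- libraries (SD, n = 3 each; edgeR adjusted p = 0.367). All 10 defining genes of CD4 T cells on a fixed list, Cd3e, Cd4 and Lck among them, were detected, and they held 0.624% to 0.878% of the counts of each library. One library stood apart, GFP+ replicate 3. There, 14 myeloid markers held 0.727% of the counts, against 0.0141% to 0.0203% in the other 5 libraries, where 13 of the 14 had at least a count. Lyz2, a lysozyme of macrophages and neutrophils and the highest of the list, stood at 4217 CPM in that library. Where this library moves a result on the 7 cytokine genes, it is given with and without that library or library by library. Over all 11074 tested genes, 12 passed an adjusted p of 0.05 in edgeR's quasi-likelihood test (0.108%; 0.0361% higher and 0.0722% lower in GFP+ cells). That count was 42 without GFP+ replicate 3, 3 without GFP- replicate 2, 1 without GFP- replicate 1 and 0 without any of the other 3 libraries.

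In GFP+ cells Il2 mRNA stood 2.55-fold higher and Ifng mRNA 1.59-fold lower than in GFP- cells, and in both genes no library of one gate overlapped the other gate. Tnf, Lta, Ltb and Csf2 had overlapping values, and Il3 had no count in any library. None of the 6 tested cytokine genes passed the threshold over all genes, where 0.108% of tested genes did. In bulk RNA, a lower share of cells that make a transcript and less transcript per cell cannot be told apart. At an unadjusted p below 0.05 there were 2 of 6, Il2 and Ifng, against 10.3% of all tested genes (4.31% higher, 5.97% lower). Non-overlapping values were likewise found for 2 of 6, against 16.0% of all tested genes (7.25% higher, 8.80% lower). The median log2 fold change of the 6 was 0.09, beside 0.02 over all tested genes. Of other tools, DESeq2 called 1 of the 6, Ifng, and 1.28% of the 12191 genes to which it gave an adjusted p. Limma-voom called 0 of the 6 and 0.0452% of all tested genes, and limma on log2 TPM called 0 of the 6.

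**Figure D1:**
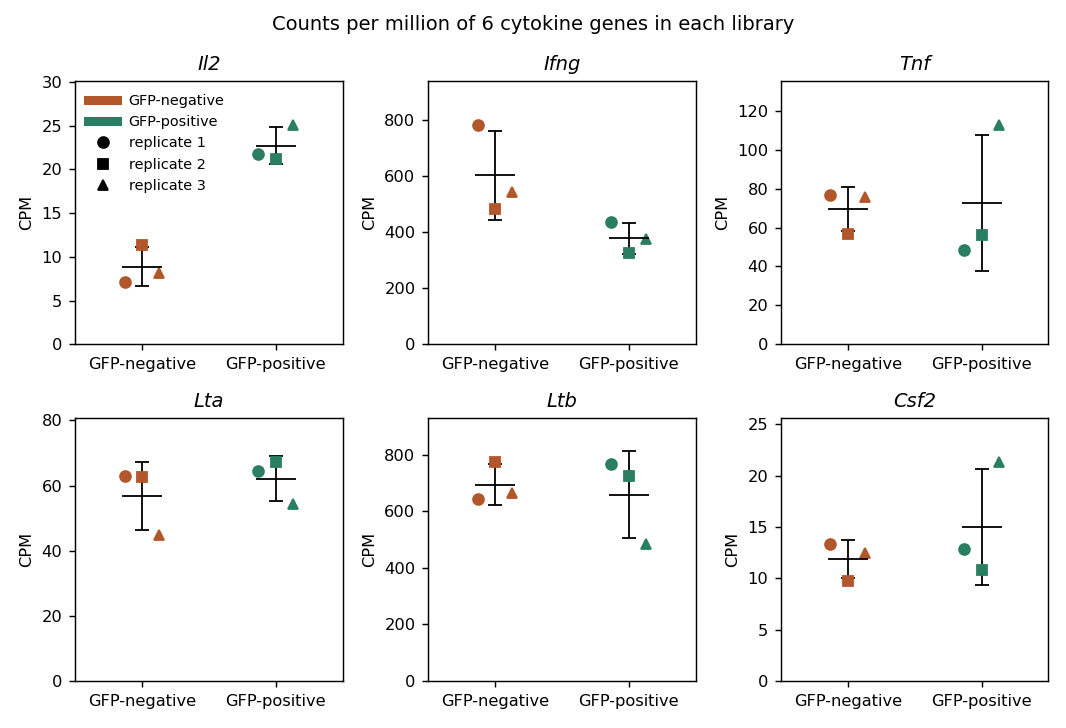
CPM (vertical axes, linear, starting at 0) of 6 cytokine genes in 3 GFP- and 3 GFP+ libraries; points are libraries, horizontal lines are means and bars are SD. Il2 lies at 21.2 to 25.1 CPM in GFP+ and 7.17 to 11.4 CPM in GFP- libraries, Ifng is shifted the other way, and for Tnf and Csf2 GFP+ replicate 3 is the highest library.

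Il2 is a gene on the minus strand of chromosome 3, at 37120523 to 37125959 (mm10, GENCODE M21), and its exons overlap no other annotated gene. It stood at 7.17, 11.4 and 8.11 CPM in GFP- replicates 1 to 3 and at 21.8, 21.2 and 25.1 CPM in GFP+ replicates 1 to 3. These values rest on 37, 50 and 37 counts and on 126, 92 and 175 counts. Every GFP+ library was above every GFP- one. The means were 22.7 ± 2.11 and 8.88 ± 2.20 CPM (SD, n = 3 each). The log2 fold change was 1.353 ± 0.35 (SE), with an adjusted p of 0.170 and an unadjusted p of 0.00214 in edgeR's test, and Il2 ranked 139 of 11074 genes by p. The 95% interval of the fold was 1.51 to 4.34, without correction for the number of genes tested. Without GFP+ replicate 3 the log2 fold change was 1.28, and over 15 alternatives it stayed between 1.22 and 1.56.

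Ifng lies on the plus strand of chromosome 10, at 118441046 to 118445892. It stood at 783, 485 and 543 CPM in GFP- and at 437, 325 and 374 CPM in GFP+ replicates 1 to 3, on 1415 to 4041 counts. The gates did not overlap, but the gap between the highest GFP+ and the lowest GFP- library was narrow beside the range of the GFP- gate. The means were 379 ± 55.8 and 604 ± 158 CPM (SD, n = 3 each), which on the log2 scale is a difference of -0.67 ± 0.19 (SE; adjusted p by edgeR 0.212). The 95% interval of the fold was 1.1996 to 2.12 lower in GFP+ cells, again without correction for the number of genes. DESeq2 gave an adjusted p of 0.0309, edgeR with no expression filter 0.00315 and edgeR with a term for replicate number 0.0490. The call therefore depends on the tool, the filter and that term. Of the 1295 exonic bases of Ifng, 336 are shared with Gm49751, a gene model on the same strand that had 110 to 219 counts per library. How the authors assigned reads in that stretch is unstated.

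The ratio of Il2 to Ifng counts within a library does not depend on a scaling factor. There were 0.916, 2.35 and 1.49 Il2 counts per 100 Ifng counts in GFP- replicates 1 to 3 and 4.998, 6.50 and 6.71 in GFP+ replicates 1 to 3. The gates did not overlap on this measure. That follows from Il2 being higher and Ifng lower in every GFP+ library, so the ratio is not a separate result. The mean was 6.07 ± 0.933 in GFP+ and 1.59 ± 0.720 in GFP- libraries (SD, n = 3 each), a ratio of 3.83, and it was 3.63 without GFP+ replicate 3.

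**Figure D2:**
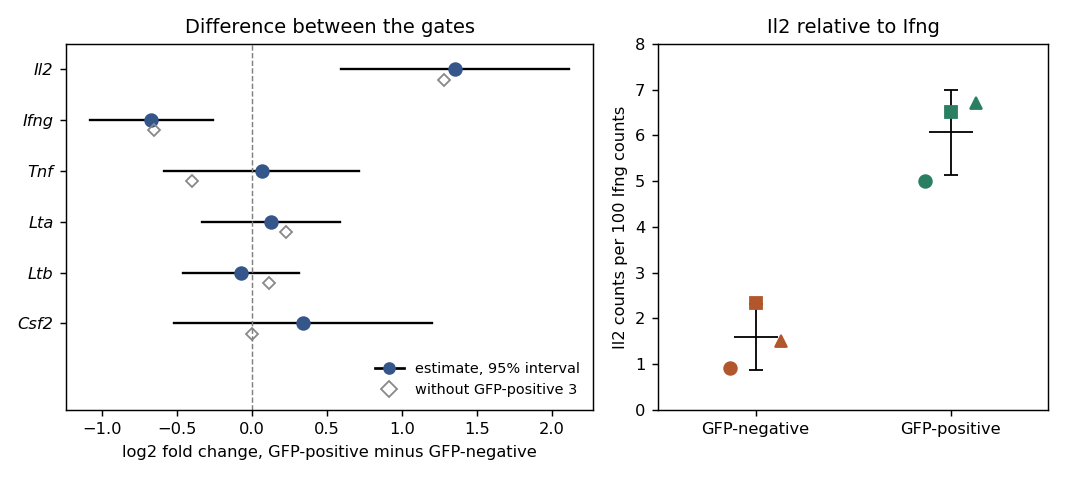
Left, log2 fold change of each gene (GFP+ minus GFP-) with its 95% interval from edgeR as filled points and lines, and the estimate without GFP+ replicate 3 as open diamonds. Right, Il2 counts per 100 Ifng counts in each library with mean and SD, using the colours and symbols of the plot of CPM by gene. The intervals of Il2 and Ifng lie on opposite sides of 0, those of Tnf, Lta, Ltb and Csf2 span 0, and the ratio is 4.998 to 6.71 in GFP+ and 0.916 to 2.35 in GFP- libraries.

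The promoters of these genes are read by factors that T cell receptor signals switch on, NFAT, AP-1 and NF-kB, and TCF1 and LEF1 bind DNA through an HMG box. The 250 bases before the RefSeq start of Il2 and Ifng (GRCm38.p6) are shown because these are the genes whose gates did not overlap. They are written 5′ to 3′ on the strand of the gene. Capitals mark matches to the NFAT core GGAAA on either strand (TTTCC on the reverse) and to the TCF/LEF core CTTTGA on either strand. The Il2 window is chr3:37125955-37126204, minus strand, and the Ifng window is chr10:118440796-118441045, plus strand.
Il2: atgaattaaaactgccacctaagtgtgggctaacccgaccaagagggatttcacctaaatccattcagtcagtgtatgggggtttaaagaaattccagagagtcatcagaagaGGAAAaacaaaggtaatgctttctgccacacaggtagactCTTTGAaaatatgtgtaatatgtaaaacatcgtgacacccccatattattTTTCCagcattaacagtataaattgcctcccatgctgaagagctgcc
Ifng: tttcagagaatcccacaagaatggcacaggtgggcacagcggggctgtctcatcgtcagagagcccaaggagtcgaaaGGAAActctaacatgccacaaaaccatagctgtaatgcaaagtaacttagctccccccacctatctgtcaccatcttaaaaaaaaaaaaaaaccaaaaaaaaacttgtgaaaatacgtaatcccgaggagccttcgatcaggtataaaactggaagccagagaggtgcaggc
The Il2 window held 2 NFAT cores, which begin 137 and 47 bases before the start, and 1 TCF/LEF core 97 bases before it. The Ifng window held 1 NFAT core, 172 bases before the start, and no TCF/LEF core. In all 7 windows at least 1 NFAT core was found, as in 55.6% of all windows of this length in the table. A TCF/LEF core was found in the windows of Il2 and Il3 and in 13.8% of all windows. The kB pattern, GGG and CC with any 5 bases between, was found in those of Il2, Tnf, Lta, Ltb and Il3 and in 45.8% of all. The AP-1 pattern TGANTCA (6.75% of all windows) and the T-box motif GGTGTGA (3.33%) were in none of the 7. The ETS core GGAAG was in all but that of Il2 (64.1% of all), and the E-box CANNTG in all but those of Il2 and Il3 (66.2% of all). Each pattern was searched on both strands, the NFAT core of the Ltb window overlaps a kB match, and kB matches overlap each other in the windows of Lta, Ltb and Il3. The RefSeq start of Csf2 lies 232 bases upstream of the one in GENCODE M21, and that of Ltb 68 bases downstream. The Csf2 window therefore leaves out the 232 bases next to the GENCODE start, and absent matches say nothing about them. The Ltb window reaches 68 bases into the GENCODE gene. A match is a run of letters and not a measured binding site.

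Tnf, Lta and Ltb sit side by side on chromosome 17, with 3060 bases between Ltb and Tnf and 1157 between Tnf and Lta. Tnf (35199381 to 35202007, minus strand), the soluble and membrane-bound ligand of the TNF receptors, stood at 76.6, 56.6 and 75.9 CPM in GFP- and at 48.7, 56.3 and 112.9 CPM in GFP+ replicates 1 to 3. GFP+ replicates 1 and 2 lay below all GFP- libraries, and replicate 3 lay above them all. The log2 fold change was 0.06 ± 0.30 (SE; edgeR adjusted p = 0.970), and without replicate 3 it was -0.40 (adjusted p = 0.529). Replicate 3 is the library in which myeloid markers held 0.727% of the counts, and myeloid cells also make TNF. The part of those cells in the Tnf value was not tested. With all libraries, the 95% interval of the Tnf fold was 0.665 to 1.64.

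Lta (35203165 to 35205351, minus strand) encodes lymphotoxin alpha, which is secreted alone or anchored to the membrane by lymphotoxin beta. It stood at 63.0, 62.8 and 44.7 CPM in GFP- and at 64.6, 67.4 and 54.2 CPM in GFP+ replicates 1 to 3. The third replicate was the lowest of both gates, and the gates overlapped. The log2 fold change of Lta was 0.13 ± 0.21 (SE; edgeR adjusted p = 0.888), with a 95% interval of the fold from 0.794 to 1.499, and it was 0.22 without GFP+ replicate 3 and -0.014 without GFP- replicate 3.

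Ltb (35194439 to 35196320, plus strand) encodes that membrane anchor, and heterotrimers of both chains signal through the receptor LTBR in lymphoid tissue organisation. It stood at 644, 776 and 664 CPM in GFP- and at 768, 725 and 483 CPM in GFP+ replicates 1 to 3, on 3026 to 4433 counts. GFP+ replicate 3 was the lowest of the 6 libraries. The log2 fold change of Ltb was -0.08 ± 0.18 (SE; edgeR adjusted p = 0.926), and it was 0.11 without that library. The 95% interval of the fold was 0.725 to 1.24. Per 100 Ltb counts there were 9.79, 8.09 and 6.74 Lta counts in GFP- and 8.41, 9.30 and 11.2 in GFP+ replicates 1 to 3, so the balance of both chains overlapped between the gates.

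Csf2 and Il3 are neighbours on chromosome 11, with 15635 bases between them. Csf2 (54247271 to 54249667, minus strand) stood at 13.4, 9.78 and 12.5 CPM in GFP- and at 12.8, 10.8 and 21.4 CPM in GFP+ replicates 1 to 3. These rest on 43 to 149 counts. As for Tnf, GFP+ replicate 3 was the highest library, and the other 5 lay close together. The log2 fold change of Csf2 was 0.34 ± 0.40 (SE; edgeR adjusted p = 0.833; 95% interval of the fold 0.697 to 2.29), and without that library it was -0.0011 (adjusted p = 0.9997). Macrophages and stromal cells also make GM-CSF, and their part in that library was not tested. Of the 800 exonic bases of Csf2, 96 lie opposite exons of Gm12223, which had 0 to 8 counts per library, and the library procedure does not record the strand.

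Relative to Ifng, Csf2 was higher in every GFP+ library. Csf2 alone overlapped between the gates, and Ifng, the denominator, was lower in every GFP+ library. Without GFP+ replicate 3, mean Csf2 was 11.8 CPM in GFP+ and 11.9 CPM in GFP- libraries. Mean Ifng was then 381 CPM in GFP+ and 604 CPM in GFP- libraries. There were 1.71, 2.02 and 2.30 Csf2 counts per 100 Ifng counts in GFP- and 2.94, 3.32 and 5.71 in GFP+ replicates 1 to 3. The gates did not overlap. The means were 3.99 ± 1.503 and 2.01 ± 0.297 (SD, n = 3 each), and their ratio was 1.99 with all libraries and 1.56 without GFP+ replicate 3. Tnf per 100 Ifng counts overlapped between the gates, at 9.77, 11.7 and 14.0 in GFP- and 11.1, 17.3 and 30.2 in GFP+ replicates 1 to 3.

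Il3 (54265303 to 54267277, minus strand), which encodes a growth factor of mast cells and basophils, had 0 counts in all 6 libraries. A count of 0 allows up to 3 counts, or 0.43 to 0.69 CPM in these libraries, and this limit covers counting error only. Il3 was therefore not tested. Markers of mast cells and basophils, the cells that respond to IL-3, were near 0 as well, at 4.37e-05% to 0.000737% of the counts of a library, and Mcpt2, Ms4a2 and Mcpt8 had no count anywhere.

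Levels of different genes can be set side by side only per length, for which the deposited TPM (transcript abundance per length and library) were used. In GFP- libraries Ifng had 1356 ± 341 TPM and Ltb 1337 ± 170 TPM (SD, n = 3 each). Tnf followed at 124 ± 17.5 TPM and Lta at 120 ± 23.9 TPM, and then Csf2 at 43.2 ± 5.98 and Il2 at 22.7 ± 6.20 TPM. Ifng was above Ltb in 1 of 3 GFP- libraries, replicate 1, and below it in replicates 2 and 3. Ifng and Ltb overlapped within the gate and so did Tnf and Lta, while Csf2 was above Il2 in 3 of 3 libraries. The means of GFP+ libraries stood in another order. Ltb led with 1227 ± 365 TPM and was above Ifng, at 819 ± 166 TPM, in 3 of 3 libraries, although the ranges of both genes overlapped. Lta had 126 ± 21.96 and Tnf 121 ± 48.6 TPM, and Il2 had 55.2 ± 2.76 and Csf2 51.5 ± 15.6 TPM. Il3 was listed at 0. In both of these pairs the order turned in GFP+ replicate 3 alone, the library with the myeloid markers, whose part in this was not tested. Lta was above Tnf in replicates 1 (140.0 against 88.996 TPM) and 2 (137 against 96.7 TPM) and below it in replicate 3 (101 against 177 TPM). Il2 was likewise above Csf2 in replicates 1 (57.2 against 48.0 TPM) and 2 (52.01 against 37.996 TPM) and below it in replicate 3 (56.3 against 68.5 TPM). Ltb had 1518, 1345 and 818 TPM in replicates 1 to 3, so replicate 3 was the lowest for Ltb.

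**Figure D3:**
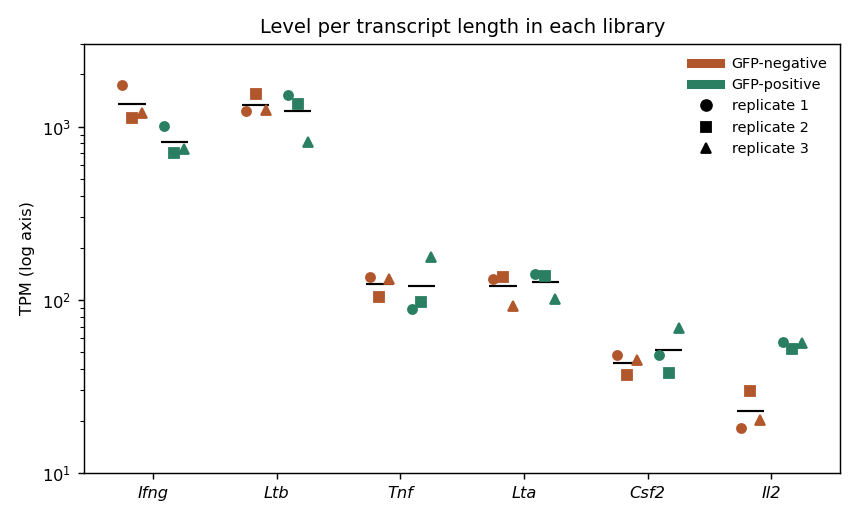
TPM of 6 cytokine genes (log axis), with genes ordered by their GFP- mean; points are libraries and horizontal lines are gate means. Ifng and Ltb lie several-fold above Tnf and Lta, and Il2 lies below Csf2 in the GFP- libraries and beside it in the GFP+ ones.

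The mRNAs of many cytokines carry AU-rich stretches in the 3′ untranslated region, copies of the pentamer AUUUA, through which proteins of the ZFP36 family and others speed up decay. To show this shared feature, 30 bases with the most ATTTA pentamers are given for the 5 detected cytokines that hold any, from GENCODE M21 transcripts in DNA letters, with capitals marking ATTTA. They lie at chr3:37121040-37121069 for Il2, chr10:118445330-118445359 for Ifng, chr17:35199679-35199708 for Tnf, chr17:35203408-35203437 for Lta and chr11:54247329-54247358 for Csf2. All are on the minus strand of mm10 but that of Ifng.
Il2: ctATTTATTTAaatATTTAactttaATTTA
Ifng: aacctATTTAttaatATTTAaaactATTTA
Tnf: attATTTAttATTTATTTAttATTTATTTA
Lta: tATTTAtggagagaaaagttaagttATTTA
Csf2: tttttaaatATTTATTTATTTATTTATTTA
Overlapping copies counted, the whole 3′ region held 9 pentamers for Csf2, 8 for Tnf, 7 for Il2, 6 for Ifng, 3 for Lta, 1 for Il3 and 0 for Ltb. Per kilobase that was 28.4 for Csf2, 12.0 for Il2, 10.5 for Tnf, 9.90 for Il3, 9.51 for Ifng and 5.24 for Lta, where the median of 21037 protein-coding genes was 1.14. A share of 99.9% of genes had fewer per kilobase than Csf2, 99.2% fewer than Il2, 98.8% fewer than Tnf, 98.4% fewer than Ifng and 92.8% fewer than Lta. Ltb, with no pentamer, was as high as Ifng per length in GFP- cells.

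Genes of proteins that bind such elements did not pass the test. Of 10 tested genes of mRNA decay and binding, 6 were positive and 4 negative in log2 fold change (median 0.18). edgeR called 0, DESeq2 0 and limma-voom 0, and 0 had an unadjusted p below 0.05. Zfp36, which encodes tristetraprolin, stood at 526, 437 and 407 CPM in GFP- and at 549, 470 and 1088 CPM in GFP+ replicates 1 to 3. Its relative Zfp36l2 had 402 ± 84.0 CPM in GFP+ and 307 ± 57.2 CPM in GFP- libraries (SD, n = 3 each; edgeR adjusted p = 0.499). Khsrp, another protein of AU-rich decay, had 9.42 ± 4.40 against 17.3 ± 5.91 CPM, and Elavl1, which encodes the stabilising protein HuR, had 137 ± 7.29 against 162 ± 19.9 CPM.

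Transcription factors that act on these promoters were spread in both directions. Of 19 tested activating factors, 8 were positive and 11 negative (median -0.08). edgeR, DESeq2 and limma-voom each called 0, and 4 had an unadjusted p below 0.05, 2 in each direction. Tbx21, which encodes the Th1 regulator T-bet and drives Ifng, stood at 183, 160 and 139 CPM in GFP- and at 130, 109 and 96.8 CPM in GFP+ replicates 1 to 3. The gates of Tbx21 did not overlap, and the direction was that of Ifng (log2 fold change -0.52 ± 0.17, SE; edgeR adjusted p = 0.268). The part of Tbx21 in the Ifng values was not tested. Irf4, a partner of NFAT and BATF, had 51.1 ± 11.2 against 79.1 ± 12.4 CPM (SD, n = 3 each; edgeR adjusted p = 0.334). The AP-1 genes Fosl2, at 282 ± 42.9 against 175 ± 59.6 CPM, and Fos, at 643 ± 198 against 335 ± 152 CPM, lay higher in GFP+ cells (edgeR adjusted p = 0.374 and 0.460).

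Of 7 tested factors that restrain cytokine genes, 4 were positive and 3 negative (median 0.13), and edgeR, DESeq2 and limma-voom called 0. At an unadjusted p below 0.05 there were 2, Prdm1 and Ikzf3, both lower in GFP+ cells. Prdm1 encodes Blimp-1, a repressor of Il2, and stood at 157, 160 and 169 CPM in GFP- and at 82.4, 121.6 and 104.8 CPM in GFP+ replicates 1 to 3. Ikzf3 encodes Aiolos, another repressor of Il2, and stood at 121.1, 123.9 and 71.9 CPM against 54.6, 71.5 and 59.7 CPM. Both genes had gates that did not overlap, by a narrow margin for Ikzf3 (edgeR adjusted p = 0.158 and 0.220). Their direction was opposite to that of Il2, and their part in the Il2 values was not tested. Zeb1, a further repressor of Il2, had 94.5 ± 27.98 against 76.7 ± 19.2 CPM (SD, n = 3 each; edgeR adjusted p = 0.758). With no expression filter, where edgeR called 373 genes in all (1.78%), Fos, Fosl2, Prdm1, Ikzf3 and Zfp36 were called, in the same directions. Of the receptor, target and other cytokine lists below, that setting called Ifngr2, Csf2ra, Bcl2, Iigp1 and Tnfsf8 higher in GFP+ cells. It called Csf1 and Areg lower.

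Among receptor chains of the 7 cytokines, 11 of 13 were tested and edgeR called 0, while 3 had an unadjusted p below 0.05. Il2rb, the beta chain shared by the IL-2 and IL-15 receptors, stood at 592, 660 and 723 CPM in GFP- and at 489, 450 and 454 CPM in GFP+ replicates 1 to 3. Its gates did not overlap (log2 fold change -0.50 ± 0.14, SE; edgeR adjusted p = 0.206), and DESeq2 called it lower with an adjusted p of 0.0184; limma-voom called 0. Tnfrsf1b, the TNF receptor of activated T cells, had 259 ± 40.9 against 311 ± 19.9 CPM (SD, n = 3 each; edgeR adjusted p = 0.619). Ifngr2 and Csf2ra were higher mainly in GFP+ replicate 3. Ifngr2, the signalling chain of the IFN-gamma receptor, reached 30.8 CPM in that library, and the other 5 held 0 to 9.20 CPM. Csf2ra, the GM-CSF receptor alpha chain of myeloid cells, reached 54.5 CPM in that library, and the others held 3.07 to 6.21 CPM. Of the 11, 8 were positive with all libraries (median 0.17) and 4 without that library (median -0.20), where edgeR again called 0.

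Below the receptors, 3 of 6 JAK and STAT genes were positive (median 0.01), and edgeR, DESeq2 and limma-voom called 0. Jak2, the kinase of the IFN-gamma, GM-CSF and IL-3 receptors, stood at 66.1, 70.7 and 54.4 CPM in GFP- and at 34.6, 43.7 and 52.1 CPM in GFP+ replicates 1 to 3 (edgeR adjusted p = 0.416; unadjusted p = 0.0288). Targets of IL-2 and STAT5 were split, 4 positive and 5 negative of 9 (median -0.17). The middle gene was Lif, a weakly detected gene with 0.194 to 7.67 CPM and an SE of 1.11. The median of the list was 0.19 with limma-voom and 0.0054 with limma on log2(TPM + 0.1). Leaving out GFP- replicate 3, GFP+ replicate 1 or GFP+ replicate 2 gave 0.22, 0.17 or 0.28. It stayed negative under the other alternatives. Of the 9 targets, edgeR and limma-voom called 0 and DESeq2 called Bcl2. Bcl2, a survival gene, stood at 153.7, 102.6 and 114.9 CPM in GFP- and at 215.4, 209.4 and 209.0 CPM in GFP+ replicates 1 to 3. Its gates were well apart (edgeR adjusted p = 0.114; DESeq2 adjusted p = 0.00824). Socs2, a feedback inhibitor that STAT5 induces, had 29.1 ± 5.78 against 52.7 ± 7.203 CPM (SD, n = 3 each; edgeR adjusted p = 0.211), and Cish, another such inhibitor, had 223 ± 29.0 against 263 ± 19.2 CPM. Gzmb, which encodes the cytotoxic protease granzyme B, stood at 315, 408 and 179 CPM in GFP- and at 152, 209 and 82.6 CPM in GFP+ replicates 1 to 3. Its gates overlapped, and its log2 fold change, -1.03 ± 0.45 (SE; edgeR adjusted p = 0.534), was the most negative of the list.

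Of 16 tested targets of IFN-gamma, 12 were positive and 4 negative, with a median of 0.14, where 51.6% of all tested genes were positive. With library size alone 10 of the 16 were positive, and with log2 TPM 9. edgeR, DESeq2 and limma-voom called 0, and 1 had an unadjusted p below 0.05, Gbp5. This GTPase of host defence stood at 17.8, 18.0 and 21.5 CPM in GFP- and at 24.1, 23.7 and 47.8 CPM in GFP+ replicates 1 to 3 (edgeR adjusted p = 0.460). Type I interferon also induces these genes. Targets of TNF and lymphotoxin through NF-kB were 5 positive and 5 negative of 10 (median 0.01), and edgeR, DESeq2 and limma-voom called 0. Traf1 had 644 ± 58.8 against 499 ± 40.1 CPM and Icam1 122 ± 12.5 against 164 ± 13.6 CPM (SD, n = 3 each; edgeR adjusted p = 0.382 and 0.327), the 2 of that list with an unadjusted p below 0.05.

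**Figure D4:**
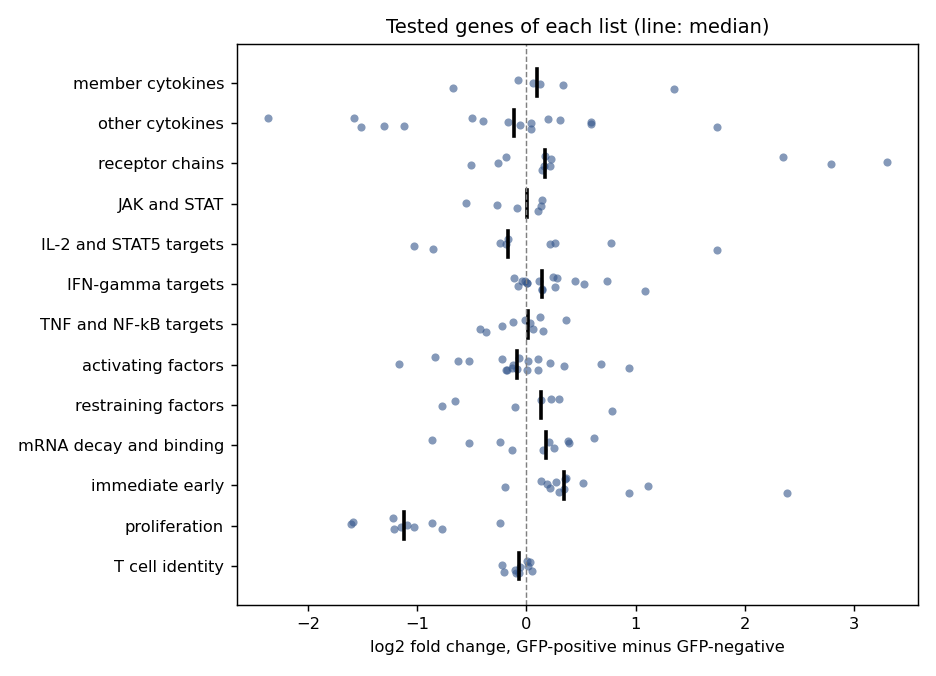
Log2 fold change (GFP+ minus GFP-) of the tested genes of 13 lists; each point is a gene, the vertical position within a list is random, and black lines are medians. The medians lie between -0.17 and 0.34 except for proliferation, at -1.12, and the receptor list has 3 points far to the right that are highest in GFP+ replicate 3.

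Other cytokines gave a mixed picture as well. Of 23 listed, 16 were tested, 7 positive and 9 negative (median -0.11), and edgeR called 0, limma-voom 0 and DESeq2 2, Csf1 and Areg. At an unadjusted p below 0.05 there were 4. Csf1, the macrophage growth factor, stood at 113.0, 74.1 and 103.1 CPM in GFP- and at 53.0, 32.6 and 47.6 CPM in GFP+ replicates 1 to 3, without overlap (edgeR adjusted p = 0.107; DESeq2 adjusted p = 0.00617). Il21 and Areg were also lower, with 6.57 ± 4.11 against 18.6 ± 5.37 CPM and 31.5 ± 2.58 against 77.7 ± 47.3 CPM (SD, n = 3 each; edgeR adjusted p = 0.309 and 0.244). The fourth was Tnfsf8, the ligand of CD30, at 336 ± 48.2 against 224 ± 87.7 CPM. Il4, Il5, Il9 and Il13, the Th2 and Th9 cytokines of the list, were at 0 to 2.96 CPM in every library and were not tested.

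Immediate early genes, which handling and stimulation induce, were positive for 12 of 13 (median 0.34), against 51.6% of all tested genes. The negative one was Nr4a1 (log2 fold change -0.20), and only Hspa1b had gates that did not overlap. Of the 13, edgeR, DESeq2 and limma-voom called 0. An unadjusted p below 0.05 in edgeR's test was found for 2, against 10.3% of all tested genes. The immediate early list held 1.21% to 1.55% of GFP+ and 0.910% to 1.36% of GFP- counts. Genes of proliferation were negative for 10 of 10 (median -1.12; edgeR called 0 and limma-voom 0, unadjusted p below 0.05 for 6, against 10.3% of all tested genes). DESeq2 called 4 of them, against 1.28% of all genes, and edgeR with no filter 6, against 1.78%. That list held 0.0521% to 0.0717% of GFP+ and 0.0695% to 0.172% of GFP- counts. The ranges of both lists overlapped between the gates. Tyms, thymidylate synthase, stood at 56.8, 102.3 and 106.8 CPM in GFP- and at 37.4, 42.1 and 34.3 CPM in GFP+ replicates 1 to 3. Between the gates, Ifng and the 10 proliferation genes were all lower in GFP+ cells. Within the GFP- gate, Ifng was highest in replicate 1, where Tyms was lowest. The part of handling and of cell division in the Il2 and Ifng values was not tested. Cd8a and Cd8b1, whose cells also make IFN-gamma, held 0.00326% to 0.0123% of GFP- and 0.00131% to 0.00536% of GFP+ counts, and the highest share was in GFP- replicate 1. Their part in the Ifng value was not tested either.

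Among 9096 tested genes with a mean of at least 5 CPM, the 4 whose pattern was most like that of Il2 over the 6 libraries were Rabggtb (Pearson r = 0.993 of log2 CPM), Xpr1 (0.9901), Vmn2r97 (0.978) and Traf3ip2 (0.978). Those most like Ifng were Prdm4 (0.994), Gdf11 (0.987), Sema4a (0.984) and Actr5 (0.982). With 6 libraries and this many genes, correlations of this size describe a ranking only, and the libraries share their gates. Rabggtb, a subunit of the enzyme that attaches lipids to RAB proteins, had 76.4 ± 5.59 CPM in GFP+ and 40.9 ± 5.56 CPM in GFP- libraries (SD, n = 3 each; edgeR adjusted p = 0.118). Sema4a, a semaphorin of immune cells, had 107 ± 16.1 against 146 ± 29.7 CPM (SD, n = 3 each; edgeR adjusted p = 0.410).

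The 7 cytokine genes together held 0.140%, 0.119% and 0.1001% of the counts of GFP+ replicates 1 to 3. In GFP- replicates 1 to 3 they held 0.158%, 0.143% and 0.134%. Ltb and Ifng made up most of them. Ltb held 56.8%, 60.1% and 45.1% of these counts in GFP+ and 40.6%, 55.4% and 49.2% in GFP- replicates 1 to 3. Ifng held 32.3%, 27.0% and 34.9% in GFP+ and 49.4%, 34.6% and 40.3% in GFP- replicates 1 to 3. Il2 held 1.61%, 1.75% and 2.34% in GFP+ replicates 1 to 3 and 0.452% to 0.812% in GFP- libraries, so it remained a small share in both gates.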

How the data were processed

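RNA-seq of 3 GFP-positive and 3 GFP-negative sorted CD4 T cell libraries was used, with groups and replicate numbers from the sample titles. The authors deposited whole-number counts and, in a second table, TPM. The submitters' processing notes name mm10, deepTools 3.5.1, SAMtools 1.17, STAR 2.7.10b and fastp 0.23.3, without their roles. Which counter and which annotation made the tables is not given in the sources used here. Per the labels' protocols, cDNA was amplified by PCR and tagged by transposase, with no strand and no molecular identifiers, so floors cover counting error only.

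Counts were tested with edgeR 4.0.16 (R 4.3.3): quasi-likelihood F-test, TMM factors, default filter (minimum count 10), group as the only term, Benjamini-Hochberg over all genes, threshold 0.05. CPM divide by the TMM-scaled sum over tested genes, and SE and 95% intervals derive from the fold change and F. Alternatives were RLE factors, library size, 2 other filters, DESeq2 1.42.0, limma-voom (limma 3.58.1), limma for genes averaging 1 TPM or more, on log2(TPM + 1) or log2(TPM + 0.1), a replicate block, and leaving out each library. The scripts were tested on simulated data. No pair of libraries was a duplicate (smallest chi-square per degree of freedom 11.4).

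The 7 genes, the lists and the tests were chosen with earlier results of these data known. Named genes were the 7, Tcf7, list genes past the threshold and up to 4 per list with the smallest p, the 4 genes most like Il2 and Ifng (gene-model names left out), and the highest gene of a marker list; of these, those that bear on the 7 are printed. Identifiers matched GENCODE M21 for 55154 of 55335 genes, and all 7 matched the RefSeq promoter table (GRCm38.p6). Antigen-presenting, B cell, natural killer and epithelial or stromal markers were summed as well. B cell markers held at most 0.00715% of the counts of any library. The others held at most 0.0477%, 0.0158% and 0.00993%, except in GFP-positive replicate 3, with 0.658%, 0.0862% and 0.0660%. Antigen-presenting markers held 0.0358% to 0.0477% in GFP-negative libraries and 0.0280% and 0.0186% in GFP-positive replicates 1 and 2. Natural killer markers held 0.0102% to 0.0158% against 0.00940% and 0.00730%. Without GFP-positive replicate 3, 7 of 7 tested antigen-presenting and 6 of 8 tested natural killer markers were negative in log2 fold change. The part of these cells in the Ifng values was not tested. All value columns matched a sample.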

Additional observations from a re-analysis of the deposited data

How the results depend on the processing

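Il2 was higher and Ifng lower in GFP-positive cells under all 15 alternatives each. Il2 was called under none, with adjusted p between 0.0702 and 0.507. Ifng was called, making 1 of the 6 cytokine genes, with no filter (log2 fold change -0.68), DESeq2 (-0.67) and a replicate block (-0.65). Leaving out each library moved Il2 between 1.22 and 1.56, Ifng between -0.81 and -0.44, Tnf between -0.40 and 0.28, Lta between -0.014 and 0.22, Ltb between -0.21 and 0.11 and Csf2 between -0.0011 and 0.52. The direction of Tnf turned with a replicate block (-0.025), log2(TPM + 1) (-0.093), log2(TPM + 0.1) (-0.094), and on leaving out GFP-negative replicate 2 (-0.074) or GFP-positive replicate 3 (-0.40). Those of Lta (-0.014, without GFP-negative replicate 3), Ltb (0.0053 when GFP-negative replicate 2 and 0.11 when GFP-positive replicate 3 was left out) and Csf2 (-0.0011, without GFP-positive replicate 3) turned too. None of these 4 genes was called under any alternative. Against 12 calls over all genes there were 19 with library size alone, 373 with no filter, 156 with DESeq2, 5 with limma-voom, 1 with log2(TPM + 1), 0 with log2(TPM + 0.1), 81 with a replicate block (Gzmb among them, -1.05, adjusted p 0.0061, and 5 of the 10 proliferation genes), and 0 to 42 when leaving out each library. The cause of these differences was not tested. Deviations of same-numbered libraries correlated at 0.104, 0.0971 and 0.104 across genes, and those of the other pairs at -0.124 to 0.0195. Each library thus correlated best with its own number, a hint of pairing from the data and not from the design. Because the sources used state no pairing, the main test treated the libraries as sharing only a number. If they were paired, that test ignored it, and the call of Ifng depends on this choice. Il2 rests on 37 to 175 counts and Csf2 on 43 to 149, which limits both. Of the recomputed values of other kinds, such as list medians and ratios, 277 stayed within the spread between replicates or kept their place, and 18 did not.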
